A study of Mus musculus with 12 samples.

Results

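The genes described here serve the presentation of antigen by the major histocompatibility complex (MHC) and were followed in the hearts of 4 mouse genotypes. They were chosen by name from a list of 10 genes, H2-K1, H2-D1, B2m, Tap1 and Psmb8 for class I and H2-Aa, H2-Ab1, H2-Eb1, Cd74 and Ciita for class II, because the group had been lower in ErbB2 KI hearts than in WT hearts. A gene was kept where a probe set of the array was assigned to it alone, which held for 8 of the 10 genes, out of 22180 genes measured. H2-D1 was represented only by a probe set shared with H2-Q2, and Cd74 only by one shared with the microRNA gene Mir5107, so neither was tested as a gene. Because the choice rested on ErbB2 KI against WT, that contrast is given below as a description with no test.

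RNA came from whole hearts of male FVB mice aged 15 weeks and was hybridised to Affymetrix Mouse Gene 2.0 ST arrays, with 3 hearts for each genotype and 12 arrays in all. KI:KO mice carry both alleles studied, the ErbB2 knock-in and the loss of ERRα. ERRα KO mice lack the orphan nuclear receptor ERRα, encoded by Esrra, and have wild-type ErbB2. ErbB2 KI mice express the receptor tyrosine kinase ErbB2 from a hypomorphic knock-in cDNA in place of the normal allele and have ERRα, and WT mice carry neither change. Both alleles act in the whole body and not in the heart muscle alone. A whole heart also holds vessels, fibroblasts, resident macrophages and other leukocytes, so that fewer cells of a type and less RNA per cell cannot be told apart in these values. Values are log2 signals after robust multi-array averaging, and the brightness of one probe set says nothing against that of another. Esrra was lower in all 3 ERRα KO hearts than in all 3 WT hearts (difference -1.19, limma adjusted p = 1.0e-04), and Erbb2 was lower in all 3 KI:KO hearts than in all 3 ERRα KO hearts (difference -0.80, limma adjusted p = 0.0217). Array medians lay between 4.58 and 4.65, and the correlation of 2 arrays across probe sets between 0.975 and 0.988.

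Class I molecules show peptides from inside the cell to CD8+ T cells and natural killer cells, and nearly every nucleated cell makes them. Class II molecules show peptides from engulfed material to CD4+ T cells and are made chiefly by dendritic cells, macrophages and B cells, with other cells joining after exposure to interferon gamma. In the heart, resident macrophages and vascular cells are known sources of both. The promoters of class I and class II genes share a short stretch of control elements, called the X and Y boxes, which are bound by the RFX complex, CREB-family proteins and NF-Y, and on which the coactivators CIITA (class II) and NLRC5 (class I) assemble.

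Of the 8 genes, 6 lie on chromosome 17, in the MHC region (H2-K1, Tap1, Psmb8, H2-Ab1, H2-Aa and H2-Eb1), B2m lies on chromosome 2 and Ciita on chromosome 16. To show the elements these genes share, the 250 bases before the start are given for a class I heavy chain, its light chain, a class II α chain and a class II β chain (RefSeq, GRCm38.p6, 5′ to 3′ along the gene). The windows are chr17:34000348-34000597 on the minus strand for H2-K1, chr2:122147437-122147686 on the plus strand for B2m, chr17:34287824-34288073 on the minus strand for H2-Aa and chr17:34305617-34305866 on the plus strand for H2-Eb1. Capitals mark CCAAT, the core of a Y box, TGACG, the core that CREB-family proteins bind in an X box, and AANNGAAA, a core bound by interferon regulatory factors, each on either strand.
H2-K1: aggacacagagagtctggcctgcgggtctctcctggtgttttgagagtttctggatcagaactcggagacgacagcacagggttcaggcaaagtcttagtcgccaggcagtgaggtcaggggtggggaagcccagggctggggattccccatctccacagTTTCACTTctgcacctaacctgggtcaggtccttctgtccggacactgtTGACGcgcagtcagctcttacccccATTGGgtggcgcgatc
B2m: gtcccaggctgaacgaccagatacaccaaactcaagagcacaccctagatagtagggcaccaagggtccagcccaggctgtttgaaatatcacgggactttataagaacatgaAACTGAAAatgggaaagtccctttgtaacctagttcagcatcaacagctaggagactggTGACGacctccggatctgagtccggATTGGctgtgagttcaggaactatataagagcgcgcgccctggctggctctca
H2-Aa: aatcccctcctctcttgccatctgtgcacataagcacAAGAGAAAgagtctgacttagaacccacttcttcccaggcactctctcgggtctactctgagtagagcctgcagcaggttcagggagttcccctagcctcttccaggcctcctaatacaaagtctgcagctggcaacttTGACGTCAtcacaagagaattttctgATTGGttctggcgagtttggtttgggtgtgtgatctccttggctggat
H2-Eb1: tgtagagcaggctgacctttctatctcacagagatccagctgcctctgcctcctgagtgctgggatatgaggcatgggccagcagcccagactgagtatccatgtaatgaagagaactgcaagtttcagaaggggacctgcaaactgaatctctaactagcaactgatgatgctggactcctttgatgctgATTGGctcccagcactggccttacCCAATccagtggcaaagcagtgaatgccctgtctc

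A promoter window was read for 7 of the 10 listed genes, and none was read for H2-Ab1, Cd74 or Ciita. In H2-K1, B2m and H2-Aa the motif TGACG was followed by CCAAT on the other strand (printed as ATTGG) 25, 25 and 26 bases on, and in the listed H2-D1 likewise by 25 bases. TGACG began 41 bases before the start in H2-K1, 78 in B2m and 74 in H2-Aa, and in H2-Aa it overlapped its own reverse match. H2-K1 had 2 windows, and its distances are from the start of the one printed. Among all 32851 windows of this length in the table, 33.8% held CCAAT, 17.8% TGACG, 21.3% AANNGAAA and 0.0822% the pair at the spacing of 25 or 26 bases, which was read off these genes. H2-Eb1 held ATTGG and CCAAT with no TGACG in this window, and the Psmb8 window held none of these letters. AAGGTCA, the core to which ERRα binds, was found in 4.08% of windows on either strand and, of the 7, in H2-Eb1 alone, 238 bases before the start. A match describes letters of the reference build, which were not read from these FVB mice, and was not tested for binding.

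The levels of the 8 genes followed one main order. The mean was highest in ERRα KO hearts for 8 of 8 genes, and for 6 of them (H2-K1, B2m, Tap1, Psmb8, H2-Aa and H2-Ab1) WT, KI:KO and ErbB2 KI hearts came next in that order. H2-Eb1 was above WT in KI:KO hearts, and Ciita was lowest in WT hearts. Of the 12 arrays, ERRα KO replicate 1 gave the highest value for 6 genes and ERRα KO replicate 3 for the other 2 (H2-K1 and H2-Aa), while an ErbB2 KI array gave the lowest value for 5 genes. Neighbouring groups in this order mostly overlapped: KI:KO and WT hearts overlapped for 8 of 8 genes, whereas ERRα KO hearts lay wholly above the next group for H2-K1, B2m and H2-Eb1.

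**Figure D1:**
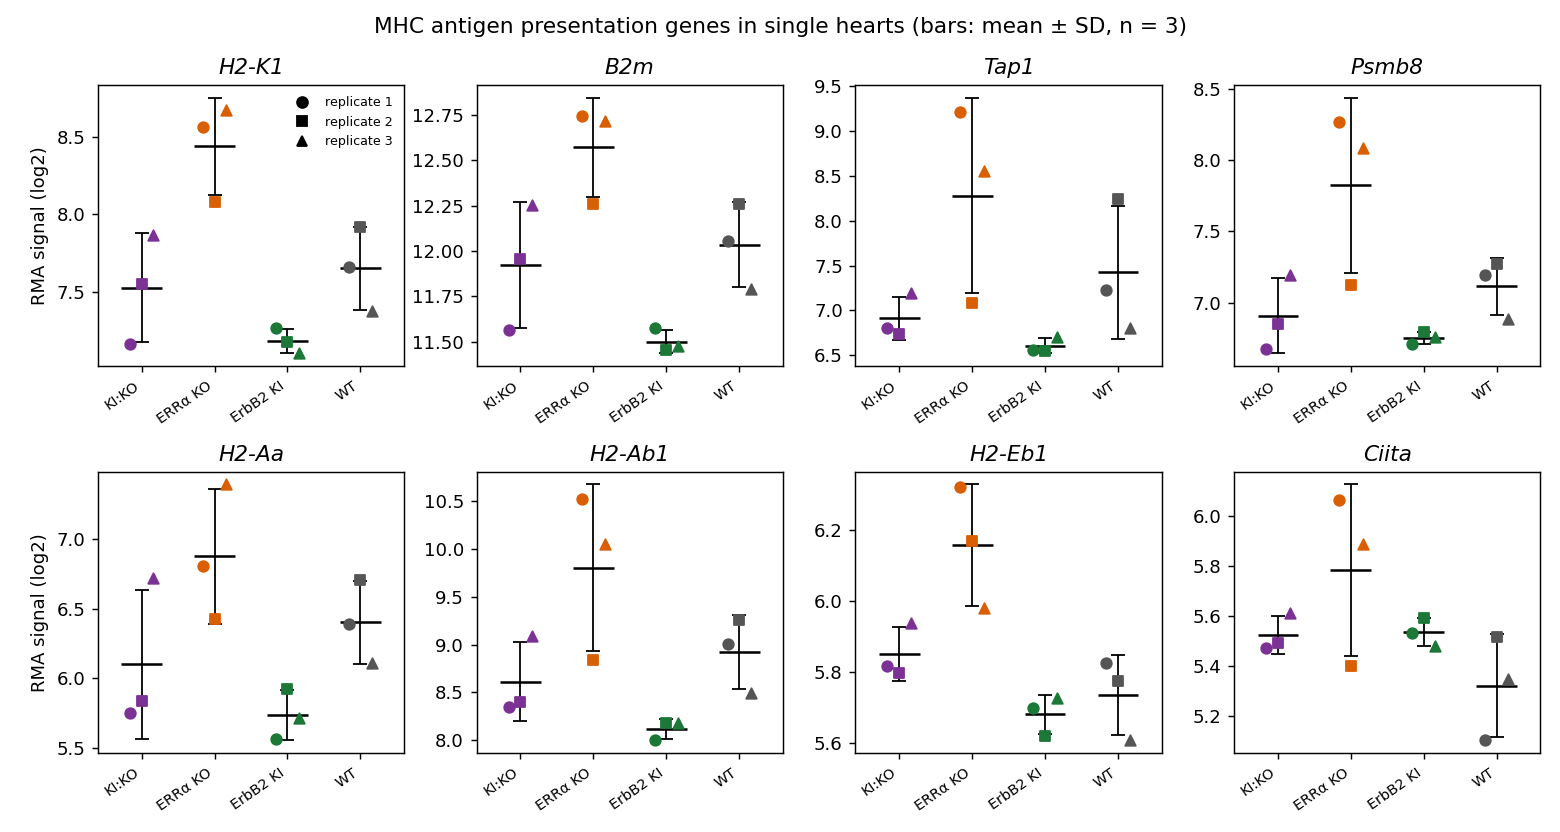
Log2 signal (vertical axes, a separate scale for each gene) of the 8 genes in each heart of the KI:KO, ERRα KO, ErbB2 KI and WT groups, with replicates 1 to 3 as circle, square and triangle and the mean ± SD in black (n = 3). ERRα KO replicates 1 and 3 are the highest arrays for 7 of the genes, ERRα KO replicate 2 lies below them in those, and the 3 ErbB2 KI hearts lie close together.

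H2-K1 encodes a classical class I heavy chain. Its log2 values were 7.16, 7.55 and 7.86 in KI:KO hearts, 8.57, 8.08 and 8.67 in ERRα KO hearts, 7.26, 7.17 and 7.10 in ErbB2 KI hearts and 7.66, 7.92 and 7.38 in WT hearts. Every ERRα KO heart was above every heart of the other groups, and every ErbB2 KI heart was below every WT heart. The H2 genes for class I heavy chains are close copies of each other, and a probe set assigned to one of them can take up signal from another.

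B2m encodes β2-microglobulin, the light chain that all class I molecules share. KI:KO hearts had log2 values of 11.56, 11.96 and 12.26, ERRα KO hearts 12.75, 12.26 and 12.72, ErbB2 KI hearts 11.58, 11.45 and 11.47, and WT hearts 12.06, 12.26 and 11.79. ERRα KO replicate 2 equalled the highest KI:KO and WT hearts to the second decimal and lay above them only beyond it, so the separation of ERRα KO hearts rested on the other 2 arrays. B2m and H2-K1 moved together more closely than any other pair of the 8 genes, with r = 0.985 across the 12 arrays and 0.986 after each group's mean was removed.

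Tap1 encodes a subunit of the transporter that carries peptides into the endoplasmic reticulum for loading on class I. It was 6.80, 6.74 and 7.19 in KI:KO hearts, 9.21, 7.08 and 8.56 in ERRα KO hearts, 6.56, 6.55 and 6.70 in ErbB2 KI hearts and 7.23, 8.25 and 6.80 in WT hearts. Its spread in ERRα KO hearts, an SD of 1.09, was the widest of any gene and group here. The arrays ERRα KO replicate 1 and WT replicate 2, stood far above the lowest heart of their own group.

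Psmb8 encodes a catalytic subunit of the immunoproteasome, which cuts peptides for class I. Its values were 6.68, 6.85 and 7.19 in KI:KO hearts, 8.27, 7.12 and 8.08 in ERRα KO hearts, 6.71, 6.79 and 6.76 in ErbB2 KI hearts and 7.19, 7.27 and 6.89 in WT hearts. ERRα KO replicates 1 and 3 stood above all other arrays, and ERRα KO replicate 2 lay among the KI:KO and WT hearts.

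H2-Ab1 encodes the β chain of the class II molecule I-A. It was 8.35, 8.40 and 9.08 in KI:KO hearts, 10.52, 8.84 and 10.05 in ERRα KO hearts, 8.004, 8.18 and 8.18 in ErbB2 KI hearts and 9.01, 9.25 and 8.50 in WT hearts. The ErbB2 KI hearts lay below all hearts of the other groups, and ERRα KO replicates 1 and 3 lay above all others. H2-Aa encodes the α chain that pairs with it, with 5.75, 5.84 and 6.72 in KI:KO hearts, 6.81, 6.42 and 7.39 in ERRα KO hearts, 5.57, 5.93 and 5.72 in ErbB2 KI hearts and 6.39, 6.70 and 6.11 in WT hearts. In both genes KI:KO replicate 3 lay above ERRα KO replicate 2, and ERRα KO replicate 2 lay within the WT range.

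H2-Eb1, the β chain of the other mouse class II molecule, I-E, varied over a narrower range. It was 5.82, 5.80 and 5.94 in KI:KO hearts, 6.32, 6.17 and 5.98 in ERRα KO hearts, 5.70, 5.62 and 5.73 in ErbB2 KI hearts and 5.82, 5.77 and 5.61 in WT hearts. All ERRα KO hearts were above all others, and the ErbB2 KI and WT hearts overlapped. Ciita, the coactivator of class II genes, was 5.47, 5.49 and 5.61 in KI:KO hearts, 6.06, 5.40 and 5.89 in ERRα KO hearts, 5.53, 5.59 and 5.48 in ErbB2 KI hearts and 5.11, 5.52 and 5.35 in WT hearts. It was the only one of the 8 genes whose mean was higher in ErbB2 KI than in WT hearts.

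The 2 shared probe sets differed from each other. The one assigned to Cd74 or Mir5107 (Cd74 encodes the invariant chain that escorts class II molecules) was 9.40, 9.53 and 10.06 in KI:KO hearts, 10.99, 9.97 and 10.69 in ERRα KO hearts, 9.13, 9.40 and 9.32 in ErbB2 KI hearts and 9.91, 10.06 and 9.58 in WT hearts, the same order of groups as H2-Ab1. The one assigned to H2-Q2 or H2-D1 ranged from 5.20 to 5.55 over all 12 arrays, and its group means lay between 5.32 in ErbB2 KI and 5.45 in ERRα KO hearts.

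The comparison of KI:KO with ERRα KO hearts asks what the hypomorphic ErbB2 allele goes with where ERRα is absent, and it is the comparison that shares no array with ErbB2 KI against WT. All 8 genes were lower in KI:KO hearts, as 50.8% of all genes were, with differences from -0.26 (Ciita) to -1.37 (Tap1) on the log2 scale and a median of -0.84 against 0.00 over all genes. None of the 8 passed an adjusted p under 0.05 (limma, Benjamini-Hochberg over 22180 genes), where 0.329% of all genes did in either direction. At an unadjusted p under 0.05, 7 of 8 were lower, against 5.03% of all genes, and 3 of 8 did not overlap between the groups (H2-K1, B2m and H2-Eb1), against 7.63%. At an unadjusted p under 0.05, the methods' test of the 2 groups alone gave 2 of 8 lower (4.27% of all genes). Limma on the same 2 groups alone gave 7 of 8 (4.2%). The smallest adjusted p was that of H2-K1, with a difference of -0.92 (SE 0.20, 95% interval -1.35 to -0.48, adjusted p = 0.0872), or 1.89-fold lower in KI:KO hearts. Psmb8 differed by -0.92 (SE 0.25, adjusted p = 0.155), B2m by -0.65 (SE 0.18, adjusted p = 0.185) and H2-Ab1 by -1.19 (SE 0.36, adjusted p = 0.213). Tap1 had the greatest difference and the greatest error, -1.37 with an interval of -2.37 to -0.37 (adjusted p = 0.276), and H2-Eb1, H2-Aa and Ciita had adjusted p of 0.283, 0.325 and 0.607.

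The calls depended on single arrays, and also on the model with all arrays kept, as the closing section gives. Without ERRα KO replicate 2, Psmb8 and H2-Ab1 passed the adjusted threshold in KI:KO against ERRα KO hearts (0.162% of all genes), and without KI:KO replicate 3 H2-K1 did (1.12%). These 2 arrays belonged to a set of 4, with ErbB2 KI replicate 3 and WT replicate 2, that deviated together from their group means over all probe sets (r of at least 0.194 between any 2 of them). Without this set, which was noticed after the values had been seen, 2 hearts a group remain. There 6 of 8 genes passed as lower in KI:KO hearts (H2-K1, B2m, Tap1, Psmb8, H2-Aa and H2-Ab1), where 0.573% of all genes passed in either direction. With the set as a block, which keeps all arrays, 0 of 8 passed (0.406% of all genes). The set holds the highest KI:KO heart for 8 of 8 genes and the lowest ERRα KO heart for 7 of 8, so leaving it out favours calls in this direction. It also holds the highest WT heart for 7 of 8. Its ErbB2 KI heart was the highest of its group for 2 genes and the lowest for 2.

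**Figure D2:**
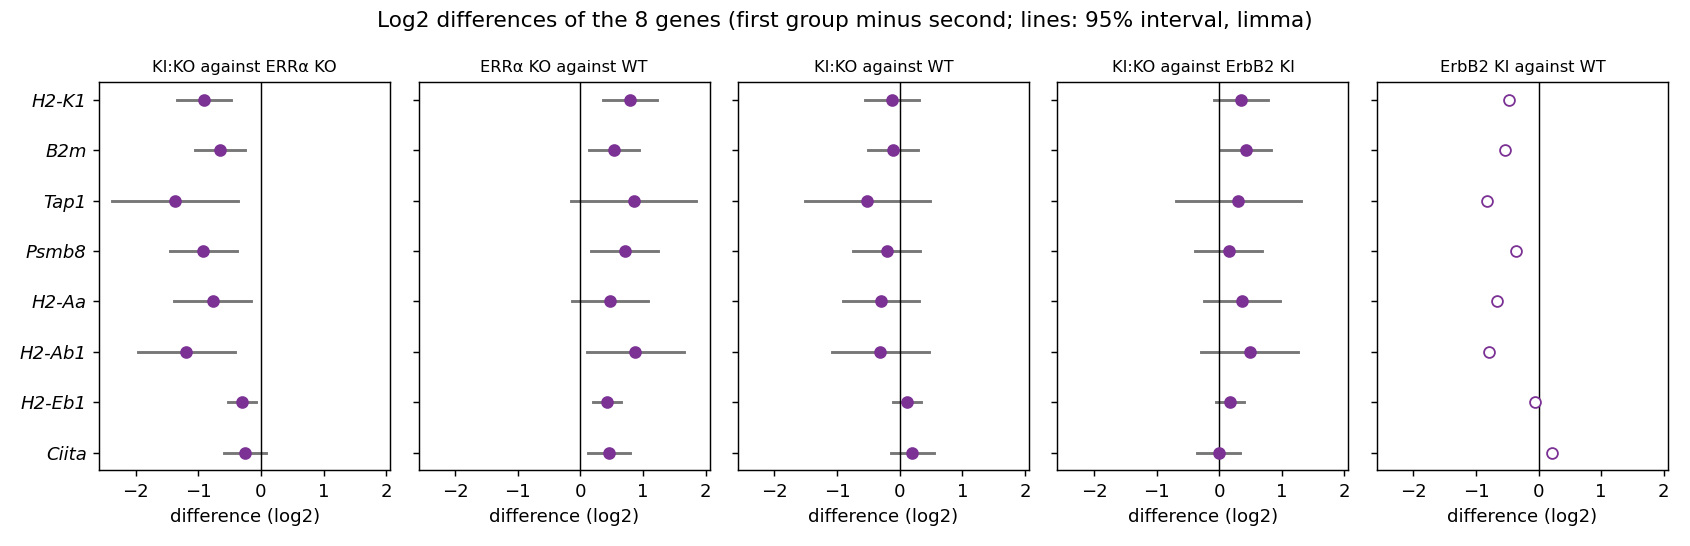
Log2 difference (horizontal axes) of each gene in 5 comparisons, the first-named group minus the second, with the 95% interval of the limma fit as a line. Open circles without intervals show ErbB2 KI against WT, the contrast that chose the genes; in KI:KO against ERRα KO all 8 points lie below 0, and in ERRα KO against WT all 8 lie above it.

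Loss of ERRα with wild-type ErbB2 was compared next, and this comparison shares its 3 WT arrays with the contrast that chose the genes. All 8 genes were higher in ERRα KO than in WT hearts, as 49.2% of all genes were, by 0.42 (H2-Eb1) to 0.88 (H2-Ab1), with a median of 0.62. None passed the adjusted threshold, which 2.35% of all genes did. At an unadjusted p under 0.05, 6 of 8 were higher, against 5.94% of all genes, and 3 of 8 lay wholly above the WT hearts, against 9.24%. H2-Eb1 came nearest, with 6.16 ± 0.17 in ERRα KO and 5.73 ± 0.11 in WT hearts (SD, n = 3 each; difference 0.42, limma adjusted p = 0.0596). H2-K1 followed, with 8.44 ± 0.32 in ERRα KO and 7.65 ± 0.27 in WT hearts (SD, n = 3 each; difference 0.79, limma adjusted p = 0.0653). Without ERRα KO replicate 2, 4 of 8 genes passed (H2-K1, Psmb8, H2-Ab1 and Ciita), where 1.5% of all genes did. H2-Eb1 alone passed without ERRα KO replicate 3 (1.14% of all genes), and H2-K1 alone without KI:KO replicate 1 (2.41%) or replicate 3 (2.64%). Without the set of 4 arrays 5 of 8 passed, where 1.1% of all genes did. The count of 6 at an unadjusted p became 2 without ERRα KO replicate 1 (5.02% of all genes higher) and 3 without WT replicate 3 (5.54%). By the methods' test of the 2 groups alone it became 2 (5.73%).

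KI:KO and WT hearts, which differ by both alleles, were not separated for any of the 8 genes. The differences ran from -0.52 (Tap1) to 0.20 (Ciita), 6 lower (51.8% of all genes) and 2 higher, with a median of -0.17. None passed at an adjusted p under 0.05, which 5.6% of all genes did, none passed at an unadjusted p under 0.05 (8.89% of all genes were lower and 8.53% higher at it), and none was free of overlap, against 12.2% of all genes wholly lower. The intervals were wide, from -0.56 to 0.31 for H2-K1 and from -1.09 to 0.47 for H2-Ab1, so differences of those sizes were not excluded, and the WT arrays are again those of the choosing contrast.

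KI:KO and ErbB2 KI hearts differ by the loss of ERRα on the knock-in background. The genes were chosen for low values in these same ErbB2 KI arrays, which favours counts of genes above them, so the counts here are a description. Of the 8 genes, 7 were higher in KI:KO hearts, against 47.3% of all genes, with a median of 0.33 and a range from -0.01 (Ciita) to 0.49 (H2-Ab1). None passed the adjusted threshold, which 3.91% of all genes did. At an unadjusted p under 0.05 only B2m was higher, with 11.92 ± 0.35 in KI:KO and 11.50 ± 0.07 in ErbB2 KI hearts (SD, n = 3 each; limma adjusted p = 0.284), against 7.95% of all genes. Tap1, H2-Ab1 and H2-Eb1 lay wholly above the ErbB2 KI hearts, 3 of 8 against 9.88%.

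In ErbB2 KI against WT hearts, the contrast behind the choice, 7 of 8 genes were lower, against 51.2% of all genes, and 6 of 8 did not overlap, against 6.14%, counts that the choice itself favours. The differences were -0.82 for Tap1, -0.80 for H2-Ab1, -0.66 for H2-Aa, -0.53 for B2m, -0.47 for H2-K1, -0.36 for Psmb8, -0.05 for H2-Eb1 and 0.21 for Ciita, and 0.0135% of all genes passed an adjusted p under 0.05 there. Set side by side, the difference that goes with the ErbB2 allele was -1.37 without ERRα and -0.82 with it for Tap1, -1.19 and -0.80 for H2-Ab1, -0.92 and -0.47 for H2-K1, -0.92 and -0.36 for Psmb8, -0.77 and -0.66 for H2-Aa, -0.65 and -0.53 for B2m, -0.31 and -0.05 for H2-Eb1, and -0.26 and 0.21 for Ciita. The difference between these differences contains the choosing contrast and was not tested.

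The spread among hearts of one genotype was itself uneven. The median SD of the 8 genes was 0.30 in KI:KO, 0.41 in ERRα KO, 0.07 in ErbB2 KI and 0.25 in WT hearts, against 0.15, 0.14, 0.13 and 0.13 over all genes. Thus by the median these genes varied more from heart to heart than a typical gene did in 3 genotypes, and less in ErbB2 KI hearts. Single genes departed from this. The SD was 0.08 for H2-Eb1 and 0.07 for Ciita in KI:KO hearts, 0.11 for H2-Eb1 in WT hearts and 0.18 for H2-Aa in ErbB2 KI hearts. Averaged over the 8 genes, the deviation from the mean of all arrays was -0.39, -0.26 and 0.14 in KI:KO replicates 1 to 3, 0.97, 0.08 and 0.83 in ERRα KO, -0.47, -0.43 and -0.45 in ErbB2 KI and -0.03, 0.28 and -0.28 in WT replicates. The 28 pairs of genes had r between 0.488 and 0.985 over the 12 arrays, with a median of 0.854, and between 0.014 and 0.986 after group means were removed. H2-Eb1 and Ciita followed the rest least closely. All arrays enter every pair, so these values describe 12 hearts and carry no test.

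The genes with the pattern most like these, among 13300 genes above the 40th percentile of level, were ranked by Pearson's r over the 12 arrays. With the mean profile of H2-Aa, H2-Ab1 and H2-Eb1 they were Parp12 (r = 0.969), Gm12250 (0.952), Gbp8 (0.949), F830016B08Rik (0.943), Igtp (0.943) and Gbp9 (0.941). With that of H2-K1 and B2m they were Gm12250 (0.931), Parp12 (0.928), Gbp8 (0.924), Gm10499 (0.921), Abca6 (0.912) and Igtp (0.911). Igtp and the Gbp genes encode GTPases induced by interferon gamma. Igtp had the widest range, with 6.42, 6.62 and 7.54 in KI:KO hearts, 10.68, 6.98 and 10.31 in ERRα KO hearts, 5.55, 5.36 and 6.14 in ErbB2 KI hearts and 7.43, 9.62 and 6.12 in WT hearts. As for the MHC genes, ERRα KO replicate 2 was far below the other ERRα KO hearts, and WT replicate 2 was the highest WT heart.

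**Figure D3:**
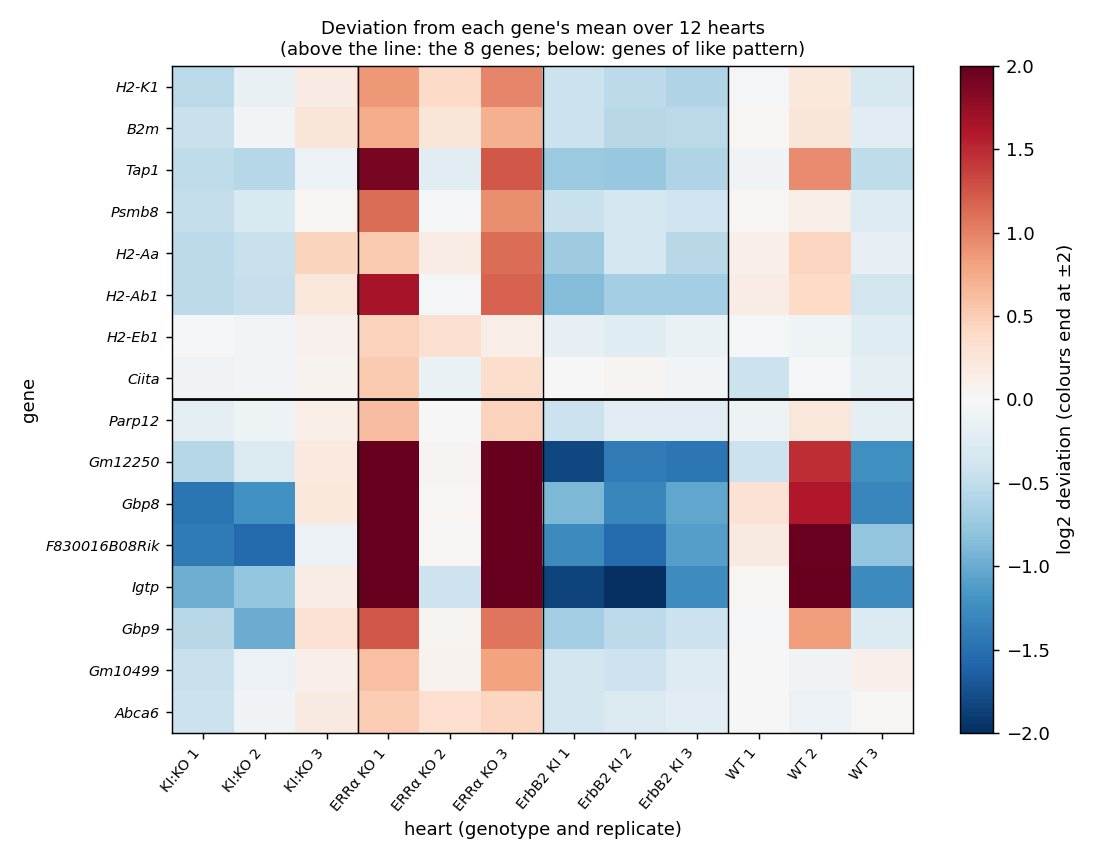
Deviation of each gene from its mean over 12 hearts (colour, log2, ending at ±2), with genes as rows and hearts as columns in the order KI:KO, ERRα KO, ErbB2 KI and WT. The 8 MHC genes stand above the line and the genes of like pattern below it; ERRα KO replicates 1 and 3 are red in nearly every row, and the 3 ErbB2 KI hearts are blue or pale.

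The other genes listed for the class I pathway had a median difference of -0.19 in KI:KO against ERRα KO hearts, with single genes from -1.02 to 0.39. Of 26 measured, 0 passed the adjusted threshold there, and 6 were lower and 1 higher at an unadjusted p under 0.05, at which 5.03% of all genes were lower and 5.58% higher. The nonclassical class I genes H2-T23 and H2-Q4 differed by -0.93 (limma adjusted p = 0.161) and -0.92 (adjusted p = 0.268), and Erap1, an aminopeptidase that trims peptides, by -0.47 (adjusted p = 0.162). Nlrc5, the class I coactivator, was 4.33, 4.65 and 4.72 in KI:KO hearts, 5.88, 4.39 and 5.69 in ERRα KO hearts, 4.64, 3.89 and 4.59 in ErbB2 KI hearts and 5.08, 5.84 and 4.48 in WT hearts, with ERRα KO replicate 2 again low and WT replicate 2 high. Psme1, which encodes a subunit of the proteasome activator PA28, took another course: it fell by 0.67 in KI:KO against WT hearts (adjusted p = 0.00155) and by 0.62 against ErbB2 KI hearts (adjusted p = 0.00338). H2-Ke6, which the list holds for its place in the MHC region but which encodes a steroid dehydrogenase, fell by 0.57 in KI:KO against WT hearts (limma adjusted p = 0.00653). H2-Q10, another class I gene, was 6.25, 5.54 and 5.40 in KI:KO and 4.25, 4.18 and 4.66 in ErbB2 KI hearts. It passed as higher there (limma adjusted p = 0.0115), but all 3 ErbB2 KI values lay under the 40th percentile of level (4.67), so the size of the difference is not given.

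The other genes of the class II pathway were divided in direction in KI:KO against ERRα KO hearts. Of 25 measured, 11 were lower and 14 higher, with a median of 0.06, and 0 passed. At an unadjusted p under 0.05 there were 2 lower and 5 higher, against 5.03% and 5.58% of all genes. Of the 2 lower, H2-DMb2, a subunit of the peptide-loading molecule H2-DM, differed by -0.54 (limma adjusted p = 0.211), with all 12 values under the 40th percentile of level. The other, H2-Ea, the α chain of I-E, differed by -0.43 (adjusted p = 0.275). Its KI:KO values of 4.49, 4.63 and 4.57 also lay under that percentile (4.67). H2-DMa, which helps to load peptide on class II, was 6.19, 5.88 and 6.32 in KI:KO hearts, 7.28, 5.98 and 6.90 in ERRα KO hearts, 5.54, 5.74 and 5.42 in ErbB2 KI hearts and 6.06, 6.53 and 5.76 in WT hearts, a pattern like that of H2-Ab1. In contrast, Ifi30, a lysosomal thiol reductase that unfolds antigens, rose by 0.71 in ERRα KO against WT hearts (limma adjusted p = 0.0192), by 1.02 in KI:KO against WT hearts (adjusted p = 0.00125) and by 0.90 in KI:KO against ErbB2 KI hearts (adjusted p = 0.00364). Cd80, a costimulatory ligand of antigen-presenting cells, was higher in KI:KO than in WT hearts by 1.07 (adjusted p = 0.0295), and Rfxank, a subunit of the RFX complex, by 0.42 (adjusted p = 0.0458). Ctss, a protease that degrades the invariant chain, rose by 1.14 in KI:KO against ErbB2 KI hearts (adjusted p = 0.0296).

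Of 24 genes of interferon gamma signalling and its targets, 20 were lower and 4 higher in KI:KO hearts against ERRα KO hearts, with a median of -0.39. None passed the adjusted threshold, and 10 were lower and 0 higher at an unadjusted p under 0.05, against 5.03% of all genes lower. Irf1, a transcription factor induced by interferon gamma, was lower in every KI:KO heart than in every ERRα KO heart (6.15, 6.37 and 6.49 against 7.51, 6.69 and 7.16, limma adjusted p = 0.201). Among the immunity-related GTPases, Iigp1 differed by -2.30 (adjusted p = 0.275), Irgm1 by -1.18 (adjusted p = 0.335), Irgm2 by -1.91 (adjusted p = 0.363) and Igtp by -2.46 (adjusted p = 0.358), and the groups overlapped for each of these 4. Icam1, an adhesion molecule, was the only gene of this list to pass in any tested comparison, higher by 0.71 in KI:KO than in WT hearts (adjusted p = 0.0108) and by 0.85 than in ErbB2 KI hearts (adjusted p = 0.00571).

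A list of genes that lie in the same chromosomal region without a part in antigen presentation had a median difference of 0.06 in KI:KO against ERRα KO hearts. Of 61 measured, 0 passed there, with 1 lower and 8 higher at an unadjusted p under 0.05, against 5.03% and 5.58% of all genes. C4b, a complement gene, rose by 1.03 in ERRα KO against WT hearts (limma adjusted p = 0.0179). In KI:KO against WT hearts 5 of the 61 passed as higher (C4b, Hspa1b, Clic1, Ier3 and Ppp1r18) and 0 as lower, where 5.6% of all genes passed. Of these, Ier3, a stress-response gene, rose by 1.29 (adjusted p = 0.000466). H2-Ke6, counted above with the class I list, fell there.

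Markers of cells that could carry MHC molecules were set beside these values, and their part in the results was not tested. Macrophage markers (18 of 18 measured, all above the 40th percentile) had a summed linear signal of 5497 to 6841 in KI:KO, 3570 to 5477 in ERRα KO, 3225 to 3629 in ErbB2 KI and 3140 to 3266 in WT hearts. KI:KO hearts had the highest macrophage signal of the 4 genotypes, and ERRα KO hearts had the highest MHC levels. In KI:KO against WT hearts 18 of 18 macrophage markers were higher, and 12 of 18 passed the adjusted threshold, which 5.6% of all genes did. Among those that passed were Lyve1, higher by 1.35 (limma adjusted p = 3.5e-05), and Mrc1, higher by 0.85 (adjusted p = 0.00156). Against ErbB2 KI hearts 17 of 18 were higher and 12 of 18 passed, where 3.91% of all genes did. Against ERRα KO hearts 1 of 18 passed, Lyve1, with a difference of 1.02 (limma adjusted p = 0.00247), where 0.329% of all genes passed. At an unadjusted p under 0.05, 9 of 18 were higher, against 5.58% of all genes.

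**Figure D4:**
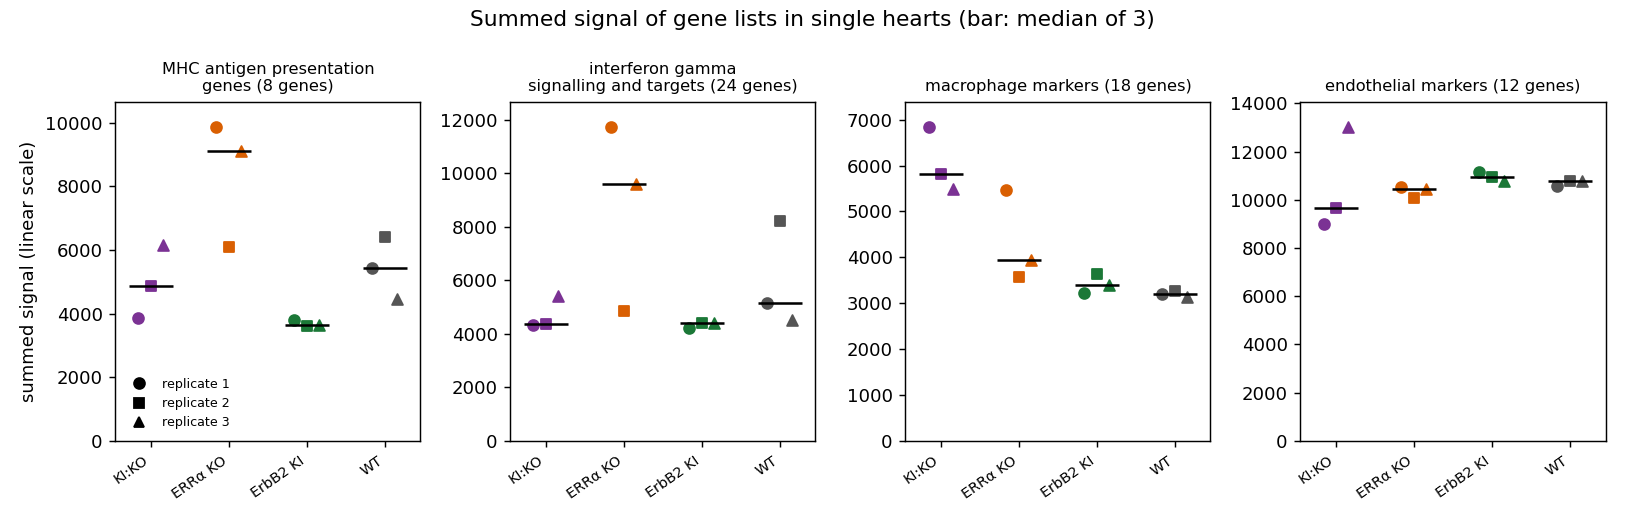
Summed linear signal (vertical axes) in each heart of the 8 MHC genes, 24 genes of interferon gamma signalling, 18 macrophage markers and 12 endothelial markers, with a bar at the median of 3 hearts. The sum of the MHC genes is led by B2m, its brightest probe set; ERRα KO hearts reach 9872 in the MHC panel, and KI:KO hearts are highest in the macrophage panel.

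Dendritic cell markers (11 of 12 names measured, 4 above the 40th percentile) summed to 424 to 492 in KI:KO, 488 to 503 in ERRα KO, 460 to 551 in ErbB2 KI and 487 to 533 in WT hearts, and B cell markers (11 of 12, 2 above) to 339 to 414, 404 to 579, 403 to 551 and 433 to 480 in the same order of groups. Neither list had a gene that passed in any of the 4 tested comparisons. Most of their genes were thus near the lower end of the signal, where the array says little about them. T and NK cell markers (12 of 14, 7 above) summed to 267 to 295 in KI:KO, 286 to 321 in ERRα KO, 287 to 861 in ErbB2 KI and 266 to 314 in WT hearts. The value of 861 came from ErbB2 KI replicate 2, where Cd3e was 7.21 (5.10 and 5.06 in the other 2 ErbB2 KI hearts), Cd4 7.21 (4.52 and 4.79) and Cd8b1 7.40 (5.11 and 4.78). The 8 MHC genes of that array lay with those of the other ErbB2 KI hearts.

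Endothelial markers (12 of 12) summed to 8980 to 13022 in KI:KO, 10084 to 10543 in ERRα KO, 10792 to 11142 in ErbB2 KI and 10588 to 10790 in WT hearts, with KI:KO replicate 3 the highest of all 12 hearts and also the highest KI:KO heart in each of the 8 MHC genes. Kdr, a receptor of vascular growth factor, was the only endothelial marker to pass. It fell in KI:KO hearts by 0.63 against WT (limma adjusted p = 0.0262) and by 0.59 against ErbB2 KI hearts (adjusted p = 0.0443). The list was divided in direction: in KI:KO against WT hearts 7 were lower and 5 higher. At an unadjusted p under 0.05 there, 2 were lower and 4 higher, against 8.89% and 8.53% of all genes. Among the higher were Vwf by 0.69 (adjusted p = 0.072), Emcn by 0.37 (adjusted p = 0.115) and Flt1 by 0.29 (adjusted p = 0.114). Of the fibroblast markers (10 of 10), 0 passed in KI:KO against ERRα KO hearts, and the sums were 14306 to 18596 in KI:KO, 14063 to 15593 in ERRα KO, 11791 to 13416 in ErbB2 KI and 11649 to 12096 in WT hearts. Postn, which encodes a matrix protein of activated fibroblasts, rose in KI:KO hearts by 1.52 against WT (limma adjusted p = 0.0431) and by 1.61 against ErbB2 KI hearts (adjusted p = 0.0438). Cardiomyocyte markers (12 of 12) summed to 77420 to 78712 in KI:KO, 77033 to 81674 in ERRα KO, 80243 to 81649 in ErbB2 KI and 80059 to 82676 in WT hearts. Myl2 and Myl3, light chains of ventricular myosin, fell in KI:KO against WT hearts by 0.50 and 0.47 (limma adjusted p = 0.0113 and 0.0106), and the other 10 markers of this list did not pass there.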

How the data were processed

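RNA of whole hearts, prepared from frozen powder, was measured on 12 arrays, 3 biological replicates for each of KI:KO, ERRα KO, ErbB2 KI and WT. The authors used robust multi-array averaging (RMA), the Affymetrix Expression Console 1.4.1 and the Transcriptome Analysis Console, per the submitters' processing notes and the methods, and the deposited table holds log2 values. RMA adjusts background, equalises the distributions of the arrays and summarises probes, so a shift common to all genes would not be seen. Raw intensities were not used here.

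The platform's annotation named 1 gene for 23521 of 41345 probe sets, several for 1820 and none for 16004. Each gene was read from its brightest probe set by mean. A single limma model (limma 3.58.1 under R 4.3.3) gave each of the 4 genotypes a mean over all 22180 genes, with 8 residual and 3.81 prior degrees of freedom. Tests were two-sided and adjusted by Benjamini-Hochberg within a comparison, and the scripts were tested on simulated data. An exact permutation of 3 hearts against 3 cannot go below 0.1, so none was run.

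The genes and the lists beside them were chosen with earlier results of these data known. From each list up to 4 genes with the smallest unadjusted p in KI:KO against ERRα KO and up to 3 with the largest difference in ErbB2 KI against WT were named (above the 40th percentile of level, log2 4.67), with 6 genes of like pattern per class, Esrra and Erbb2, and, chosen after their values were seen, genes of the lists that passed in a tested comparison. Promoters are from RefSeq (GRCm38.p6). Plots used matplotlib 3.10.9 under Python 3.11.15.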

Additional observations from a re-analysis of the deposited data

How the results depend on the processing

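Across the alternatives (the methods' test of 2 groups, limma on 2 groups alone, array weights, an intensity trend, removal of dim genes, the whole table of probe sets, averaged probe sets, arrays centred or quantile normalized, a replicate block, a fold limit of 1.5, each array left out, and, chosen after seeing the data, the set of 4 arrays as a block or left out), 145 values of counts and medians stayed within their limits and 19 moved. For single genes, 727 kept direction and side of the threshold, 33 passed it newly and 8 turned sign.

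The number of the 8 genes called is given here with the share of all genes called at the same setting. In KI:KO against ERRα KO it was 0 with all arrays and the model given above (0.329%). It was 1 above the dim limit (H2-K1, 1.78%) and 1 with an intensity trend (H2-K1, 1.33%). With array weights it was 2 (H2-K1 and Psmb8, 0.92%). It was 0 to 2 with 1 array left out (0.0766% to 1.12%) and 6 without the set of 4 (0.573%). In ERRα KO against WT it was also 0 with all arrays and that model (2.35%). It was 2 above the dim limit (6.61%) and 2 with a trend (4.09%), both times H2-K1 and H2-Eb1. With array weights it was 4 (H2-K1, B2m, Psmb8 and Ciita, 3.93%). It was 0 to 4 with 1 array left out (0.947% to 2.64%) and 5 without the set (1.1%). The count at an unadjusted p under 0.05 became 2 by the methods' test in either comparison (7 and 6 by limma), and ran from 2 to 8 in ERRα KO against WT with 1 array left out (2 without ERRα KO replicate 1, 3 without WT replicate 3). The median difference in ErbB2 KI against WT was -0.50, and -0.35 without the set. In KI:KO against WT, H2-K1 turned to 0.0093 without WT replicate 2 and to 0.057 without KI:KO replicate 1 (range with 1 array left out -0.29 to 0.057), and B2m to 0.00072 and 0.070 (range -0.28 to 0.070). Ciita in KI:KO against ErbB2 KI, -0.01, became 0.028 after centring and turned without ErbB2 KI replicate 2, KI:KO replicate 1 or KI:KO replicate 2 (range -0.053 to 0.019). The causes were not tested.

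Replicate numbers are shared by the groups but did not pair the arrays: of 18 same-numbered pairs, 3 correlated above 0.1 (r from -0.179 to 0.251), and 2 of 12 arrays correlated best with their own number. With the replicate block the count called stayed at 0 in all 4 tested comparisons, while the genes called over the whole array went to 38 in KI:KO against ERRα KO (73 without it), 362 in ERRα KO against WT (521), 1008 in KI:KO against WT (1243) and 680 in KI:KO against ErbB2 KI (867).

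With 3 hearts a group, precision is limited by the number of arrays.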
